A study of Homo sapiens with 6 samples.

Results

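The transcripts of 10 genes of the integrated stress response are described here, in cells labelled LNCaP, an androgen-responsive prostate cancer line that was established from a lymph node. They are the transcription factors ATF4, DDIT3 (which encodes CHOP), ATF3 and CEBPB, and the response genes CHAC1, TRIB3, ASNS, SESN2, DDIT4 and PPP1R15A. The genes were chosen by name, and all 10 were found by Ensembl identifier through GENCODE 29 among the 25969 genes listed in the files. All 10 also passed the filter on low values, which left 20927 genes for testing. In 3 libraries the cells carried a transfected expression vector for VIM-AS1, which is a noncoding transcript from the strand opposite the vimentin gene VIM. The other 3 libraries are controls transfected with the empty pcDNA3.1 plasmid, with the genotype given as WT, and nothing in the labels gives the time after transfection or says whether replicates were separate cultures. P-values therefore reflect how much the 6 libraries vary, and that variation may be technical.

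The integrated stress response begins with phosphorylation of the translation initiation factor eIF2 by kinases that sense amino acid shortage, unfolded protein in the endoplasmic reticulum, double-stranded RNA or haem shortage. General translation then falls, while translation of ATF4 mRNA rises through its upstream open reading frames, so that the level of ATF4 mRNA is not a measure of ATF4 protein. ATF4 pairs with C/EBP factors and activates genes of amino acid supply and redox control. It also activates DDIT3, whose product CHOP is linked to cell death under prolonged stress, and PPP1R15A (GADD34), which brings a phosphatase back to eIF2 and closes the loop.

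A known ATF4 binding sequence is the C/EBP-ATF composite element, searched here as TGATGNAA, and the promoters of the 10 genes were read for it because their transcripts moved in different directions. RefSeq promoter windows (GRCh38.p14, from 250 bases before to 50 after an annotated start) were found for all 10 genes, in 17 windows. The composite element matched in 3 of these 17 windows, 1 each of CHAC1, ASNS and ATF3. Over all 35116 RefSeq promoter windows 3.62% held it on either strand. The cAMP response element TGACGTCA matched in the window of PPP1R15A and is in 1.85% of all windows. The AP-1 element TGACTCA matched in both of the overlapping windows of DDIT3 and is in 4.95% of all windows. The endoplasmic reticulum stress response element, CCAAT followed by CCACG after 9 bases of any kind, matched in no window of the 10 genes and is in 0.0769% of all windows. No base of a printed window belongs to more than 1 match. The windows of CHAC1 and DDIT3, which fell, of ASNS, which holds the same element as CHAC1 and was not called, and of PPP1R15A, which rose, are shown 5′ to 3′ on the gene's own strand, with each match in capitals.
CHAC1, chr15:40953221-40953520, plus strand: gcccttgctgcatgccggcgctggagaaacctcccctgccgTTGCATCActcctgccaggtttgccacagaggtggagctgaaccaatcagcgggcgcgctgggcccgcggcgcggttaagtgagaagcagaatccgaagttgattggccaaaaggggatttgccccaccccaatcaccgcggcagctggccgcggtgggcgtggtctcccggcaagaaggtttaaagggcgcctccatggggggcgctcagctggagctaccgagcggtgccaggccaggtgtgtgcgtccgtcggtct
DDIT3, chr12:57520465-57520764, minus strand: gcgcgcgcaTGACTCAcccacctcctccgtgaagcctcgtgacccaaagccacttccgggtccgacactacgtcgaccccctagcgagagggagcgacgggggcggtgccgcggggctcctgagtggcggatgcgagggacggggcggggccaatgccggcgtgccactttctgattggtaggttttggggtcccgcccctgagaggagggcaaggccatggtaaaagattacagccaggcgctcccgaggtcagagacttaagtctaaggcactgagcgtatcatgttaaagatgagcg
ASNS, chr7:97872359-97872658, minus strand: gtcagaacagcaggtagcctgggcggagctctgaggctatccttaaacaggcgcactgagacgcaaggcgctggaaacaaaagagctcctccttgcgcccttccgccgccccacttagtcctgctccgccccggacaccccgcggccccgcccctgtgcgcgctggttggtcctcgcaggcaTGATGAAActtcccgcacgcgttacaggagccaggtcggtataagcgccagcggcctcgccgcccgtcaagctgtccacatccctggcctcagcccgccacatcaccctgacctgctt
PPP1R15A, chr19:48872171-48872470, plus strand: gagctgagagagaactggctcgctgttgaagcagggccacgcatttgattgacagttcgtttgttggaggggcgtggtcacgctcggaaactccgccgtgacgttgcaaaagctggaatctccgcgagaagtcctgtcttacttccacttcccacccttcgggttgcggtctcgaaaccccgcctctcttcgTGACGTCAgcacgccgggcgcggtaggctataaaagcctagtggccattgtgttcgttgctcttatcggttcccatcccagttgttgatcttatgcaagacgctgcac
The first base of the match lies 209 bases before the annotated start in CHAC1 (on the reverse strand), 241 before it in DDIT3, 68 before it in ASNS and 58 before it in PPP1R15A. A match is a description of letters and not a measured binding site.

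Libraries held 14762893 to 19889745 recovered reads, and VIM-AS1 itself stood at 2197, 2019 and 2763 normalized reads in the overexpression libraries, against 8.63, 1.22 and 5.53 in the controls. Of 7 prostate luminal markers in the files, KRT8, KRT18 and HOXB13 were among those detected in every library. KLK3, which encodes prostate-specific antigen, had no read in 5 of the 6 libraries and FOLH1, which encodes prostate-specific membrane antigen, had none in 4, so 2 defining genes of the LNCaP line were at or near 0. Summed fibroblast markers (4 of 5 in the files) reached 967.0 to 1421 normalized reads with VIM-AS1 and 1649 to 1858 in the controls, with DCN (log2 fold change -1.30) and COL1A1 (-0.46) lower and LUM and COL1A2 at or near 0. Summed basal markers (3 of 3 in the files) reached 4.90 to 17.9 with VIM-AS1 and 24.9 to 40.3 in the controls, with TP63 lower. Summed endothelial markers (3 of 3) reached 64.5 to 108.8 with VIM-AS1 and 33.2 to 64.7 in the controls, with VWF higher and PECAM1 at 0 in 5 of the 6 libraries. CD68, the 1 leukocyte marker in the files, was at 0 in every VIM-AS1 library and at 0 to 3.84 in the controls. Mitochondrially encoded genes took 5.57% to 7.06% of reads with VIM-AS1 and 8.73% to 14.3% in the controls. The part of these differences in the results below was not tested, and in bulk RNA fewer cells of a type and less RNA per cell cannot be told apart. In both groups the library numbered 3 differed most from the other libraries, and this shared deviation followed GC content (Spearman rho -0.83 across 13168 genes, a description across genes).

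CHAC1 fell to 0.254 of its control level with VIM-AS1 overexpression, DDIT3 and CEBPB fell less, and PPP1R15A rose slightly, while ATF4 itself was not called. "Rose" and "fell" refer to limma fits that hold a term for the third library of each group, at an adjusted p below 0.05, on log2(normalized reads + 1) and adjusted by the Benjamini-Hochberg method over all 20927 genes. With that term 1 of the 10 genes was higher and 3 were lower, so 4 were called, where 19.4% of all tested genes were called (11.5% higher and 7.94% lower). Without the term limma called none of the 10 (2 had an unadjusted p under 0.05), where 0.0239% of all genes were called. Without it edgeR and limma-voom also called 0, where each called 0.0191% of all genes, and DESeq2 called 1, which was CHAC1, where 1.69% of all genes were called. With the replicate number as a block, which takes in the third-library term, 2 were higher and 5 lower. With that block 26.6% of all genes were called (15.8% higher and 10.8% lower). With GC and length trends removed 1 was called without the term, where 10% of all genes were, and 5 with it, where 20.7% were. The median log2 fold change of the 10 genes was -0.14, and that of all tested genes was -0.02. Groups did not overlap for 3 of the 10 genes (1 higher, 2 lower), where 19.8% of all tested genes did not overlap (9.5% higher and 10.3% lower). A balanced design makes the fold change the same with and without the term, so each gene below has 1 fold change and a p-value from either fit.

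**Figure D1:**
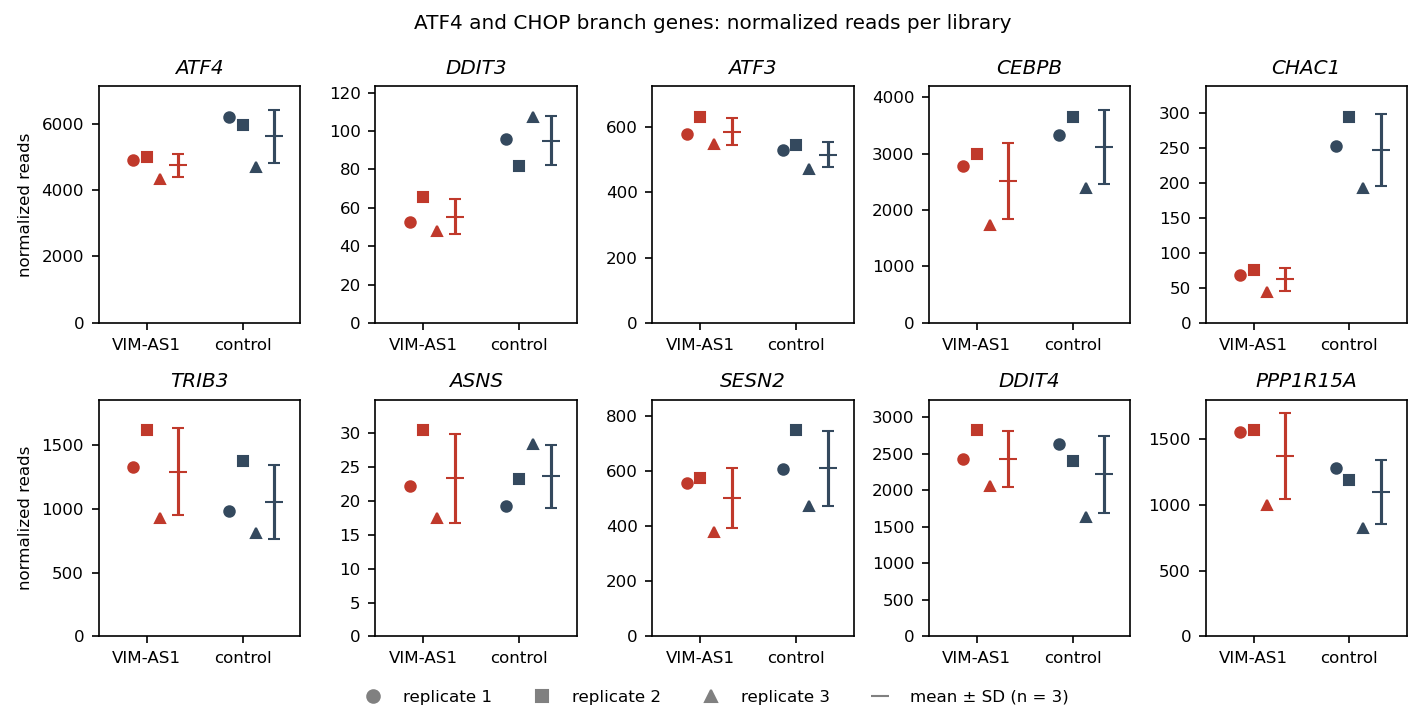
Normalized reads of each of the 10 genes (y axis, starting at 0) in the 3 VIM-AS1 libraries and the 3 control libraries, with the mean and SD of each group beside the points. CHAC1 and DDIT3 are lower in every VIM-AS1 library than in any control, and library 3 is the lowest of the VIM-AS1 group for all 10 genes and the lowest of the controls for every gene but DDIT3 and ASNS.

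Among the factors, ATF4 (ENSG00000128272, chromosome 22 from 39519695 to 39522685, plus strand, GRCh38) was the most abundant of the 10 genes. It stood at 4889.6, 4997 and 4342 normalized reads in the VIM-AS1 libraries, against 6201, 5946 and 4700.3 in the controls. The groups overlapped, since the third control lay under the first and second VIM-AS1 libraries, although each VIM-AS1 library was under the control of the same number. The means were 4743 ± 351.3 with VIM-AS1 and 5616 ± 803.1 in the controls (SD, n = 3 each), a log2 fold change of -0.24 ± 0.10 (SE; 95% interval -0.45 to -0.02). It was not called by limma with the term (adjusted p = 0.12) or without it (0.68), and was called with the replicate block (0.0248) and, with the term, under library size scaling (0.0371). GENCODE 29 lists 4 processed or transcribed pseudogenes named after ATF4, of which ATF4P3 is in the files with at most 8.55 normalized reads.

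DDIT3 (ENSG00000175197, chromosome 12 from 57516588 to 57521737, minus strand) encodes CHOP, a C/EBP family factor downstream of ATF4. It stood at 52.7, 65.6 and 48.1 normalized reads with VIM-AS1, against 95.9, 81.9 and 107.4 in the controls, and the groups did not overlap. DDIT3 fell to 55.5 ± 9.10 with VIM-AS1, against 95.1 ± 12.8 in the controls (SD, n = 3 each; log2 fold change -0.77 ± 0.22, limma with the term, adjusted p = 0.0181, against 0.27 without it and 0.00702 with the block). These values rest on 47 to 67 recovered reads per library with VIM-AS1 and 67 to 136 in the controls. The log2 difference was -0.85, -0.31 and -1.14 in the libraries numbered 1, 2 and 3. The call with the term was lost without VIM-AS1 replicate 1 (adjusted p = 0.0746), without VIM-AS1 replicate 3 (0.24) and without control replicate 3 (0.26), and the log2 fold change lay between -0.91 and -0.58 over the 6 left-out libraries. With the term, leaving out either library numbered 3 gives a fold change from the first and second libraries of each group alone. This holds for every gene, so these settings are not separate checks. Of the exons of DDIT3, 27.2% (355 bp) are also exon of MARS1 on the opposite strand, and nothing in the labels says that the libraries keep strand, so reads from the shared stretch cannot be told apart. MARS1, the cytosolic methionyl-tRNA synthetase, moved the other way, with 2192 ± 219.3 normalized reads with VIM-AS1 and 1673 ± 168.2 in the controls (limma with the term, adjusted p = 0.00969).

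CEBPB (ENSG00000172216, chromosome 20 from 50190734 to 50192689, plus strand) encodes C/EBP beta, a partner of ATF4 and CHOP. It stood at 2787, 2999 and 1741 normalized reads with VIM-AS1, against 3327, 3650.4 and 2392 in the controls. The groups overlapped because library 3 was low in either group, and each VIM-AS1 library was under the control of its number. The means were 2509 ± 673.7 with VIM-AS1 and 3123 ± 653.2 in the controls (SD, n = 3 each), and the log2 fold change was -0.33 ± 0.10 (limma with the term, adjusted p = 0.0261, against 0.64 without it and 0.00177 with the block). Of its exons, 11.8% (231 bp) are shared with the antisense gene CEBPB-AS1, which had 26.6 to 51.3 normalized reads per library. CEBPB has the highest GC content of the 10 genes, at 66.2% of its longest transcript, and with GC and length trends removed its log2 fold change was -0.21 (adjusted p = 0.0851). The call was also lost when VIM-AS1 replicate 1 (adjusted p = 0.11), VIM-AS1 replicate 2 (0.0655), VIM-AS1 replicate 3 (0.28), control replicate 2 (0.0586) or control replicate 3 (0.28) was left out.

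ATF3 (ENSG00000162772, chromosome 1 from 212565334 to 212620777, plus strand) encodes a stress-induced factor of the ATF/CREB family and an ATF4 target. It stood at 578.4, 631 and 548.5 normalized reads with VIM-AS1, against 529.5, 544.9 and 471.5 in the controls. The groups did not overlap, but the lowest VIM-AS1 library stood barely above the highest control. ATF3 averaged 586 ± 41.8 with VIM-AS1 and 515.3 ± 38.7 in the controls (SD, n = 3 each; log2 fold change 0.19 ± 0.11, 95% interval -0.05 to 0.42). It was not called with the term (limma, adjusted p = 0.27), without it (0.75) or with the block (0.14).

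**Figure D2:**
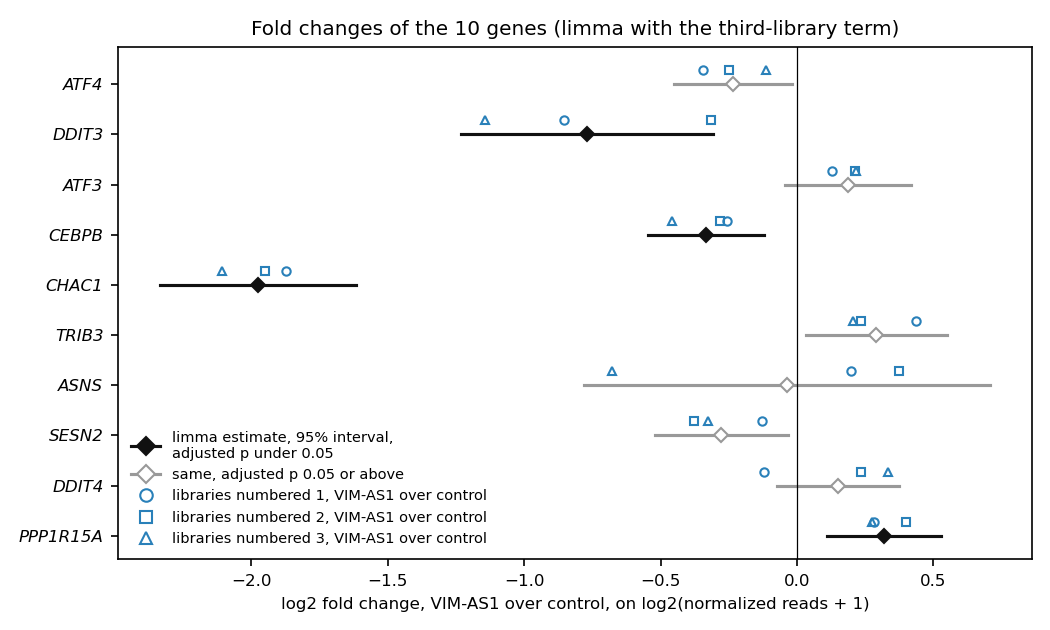
Log2 fold change of VIM-AS1 over control for each gene (x axis), with the limma estimate and its 95% interval from the fit with the term for the third library of each group, and above it the difference in each set of same-numbered libraries. CHAC1 lies near -1.98 in every set, whereas ASNS and DDIT4 have differences on both sides of 0.

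Among the response genes, CHAC1 (ENSG00000128965, chromosome 15 from 40952962 to 40956519, plus strand) changed most. Its product degrades glutathione, and it is activated by the ATF4 and CHOP pathway. CHAC1 stood at 68.5, 75.4 and 44.0 normalized reads with VIM-AS1, against 253.2, 294.4 and 192.7 in the controls. The highest VIM-AS1 library lay well under the lowest control. CHAC1 fell to 62.6 ± 16.5 with VIM-AS1, against 246.8 ± 51.2 in the controls (SD, n = 3 each), which is 0.254 of the control mean. The log2 fold change was -1.98 ± 0.17 (limma with the term, adjusted p = 4.65e-07, 95% interval -2.34 to -1.62). The difference was -1.87, -1.95 and -2.11 in the libraries numbered 1, 2 and 3. CHAC1 kept its call in all 16 alternative settings of the fit with the term, with log2 fold changes from -2.06 to -1.87 and adjusted p-values up to 0.0227. Without the term its adjusted p was 0.0563 by limma and 0.0552 by edgeR. It passed without the term by DESeq2 (5.65e-06) and by limma without control replicate 3 (0.0235). With the replicate block, which takes in the term, it passed by limma (2.25e-09).

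PPP1R15A (ENSG00000087074, chromosome 19 from 48872392 to 48876057, plus strand), which encodes the stress-induced regulatory subunit of the eIF2 phosphatase, moved in the opposite direction. It stood at 1556, 1566 and 995.7 normalized reads with VIM-AS1, against 1281, 1187 and 823.0 in the controls. The groups overlapped, since the third VIM-AS1 library lay under the first and second controls, and each VIM-AS1 library was over the control of its number. The means were 1372 ± 326.4 with VIM-AS1 and 1097 ± 241.8 in the controls (SD, n = 3 each), a log2 fold change of 0.32 ± 0.10 (limma with the term, adjusted p = 0.0303, against 0.64 without it and 0.00360 with the block). The call was lost under library size scaling (adjusted p = 0.12) and without VIM-AS1 replicate 1 (0.10), VIM-AS1 replicate 2 (0.13), VIM-AS1 replicate 3 (0.17), control replicate 2 (0.0763) or control replicate 3 (0.17).

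TRIB3 (ENSG00000101255, chromosome 20 from 362835 to 397559, plus strand) encodes a pseudokinase that is induced by ATF4 and CHOP and restrains them. It stood at 1332, 1615 and 930.2 normalized reads with VIM-AS1, against 984.2, 1373 and 807.2 in the controls, with overlapping groups. The log2 fold change was 0.29 ± 0.12 (95% interval 0.03 to 0.55). It was not called by limma with the term (adjusted p = 0.11) or without it (0.69), but was called with the block (0.00899), with GC and length trends removed beside the term (0.0340) and, with the term, without control replicate 2 (0.0313). TRIB3 thus stood on the other side of 0 from CHAC1 and DDIT3, although all of them are known targets of the same pathway.

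SESN2 (ENSG00000130766, chromosome 1 from 28259527 to 28282491, plus strand) encodes sestrin 2, which senses leucine and restrains mTORC1. It stood at 556.3, 576.1 and 378.6 normalized reads with VIM-AS1, against 608.1, 748.9 and 475.5 in the controls, with overlapping groups. The log2 fold change was -0.28 ± 0.12 (95% interval -0.52 to -0.03). It was not called by limma with the term (adjusted p = 0.11) or without it (0.69), but was called with the block (0.0277), with GC and length trends removed beside the term (0.0301) and, with the term, without control replicate 1 (0.0182).

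DDIT4 (ENSG00000168209, chromosome 10 from 72273920 to 72276036, plus strand) encodes REDD1, another brake on mTORC1, and also responds to hypoxia and glucocorticoids. It stood at 2419, 2817 and 2052 normalized reads with VIM-AS1, against 2627, 2395 and 1628 in the controls, and the groups overlapped. The log2 difference was -0.12 in the libraries numbered 1, against 0.23 and 0.33 in those numbered 2 and 3. Of its exons, 41.2% (847 bp) are also exon of DDIT4-AS1 on the opposite strand, which was not analysed here. DDIT4 was not called with the term (log2 fold change 0.15 ± 0.11, 95% interval -0.07 to 0.37, limma, adjusted p = 0.37), without it (0.84) or with the block (0.21).

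ASNS (ENSG00000070669, chromosome 7 from 97852118 to 97872542, minus strand) encodes asparagine synthetase and is a standard reporter of ATF4 activity. It was barely expressed, at 22.1, 30.4 and 17.4 normalized reads with VIM-AS1, against 19.2, 23.2 and 28.4 in the controls. Of its exons, 44.6% (1985 bp) are also exon of AC079781.5 on the same strand, which had 0 to 5.88 normalized reads per library. The groups overlapped, and the log2 difference was 0.20, 0.37 and -0.68 in the libraries numbered 1, 2 and 3. It had 17 to 36 recovered reads per library, and its log2 fold change of -0.04 ± 0.36 had a 95% interval of -0.78 to 0.71 (limma with the term, adjusted p = 0.96), so a change within that interval was not resolved. The sign of its fold change turned to positive (0.28 with the term) when either library numbered 3 was left out. With the term both settings rest on the first and second libraries of each group alone.

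Per kilobase of annotated exon, the levels of the 10 genes spanned a wide range. In the VIM-AS1 libraries the order was ATF4 (1887 ± 139.7 normalized reads per kilobase, SD, n = 3), CEBPB (1283 ± 344.4), DDIT4 (1180.4 ± 185.9), PPP1R15A (443.7 ± 105.5), TRIB3 (376.3 ± 100.2), SESN2 (145.9 ± 31.5), ATF3 (145.0 ± 10.3), DDIT3 (42.4 ± 6.96), CHAC1 (30.4 ± 8.02) and ASNS (5.23 ± 1.47). CEBPB and DDIT4, PPP1R15A and TRIB3, and SESN2 and ATF3 differed by less than 1 SD. In the controls CHAC1 stood at 119.9 ± 24.9 per kilobase, within 1 SD of ATF3 (127.6 ± 9.57) and above DDIT3 (72.7 ± 9.80). In the VIM-AS1 libraries CHAC1 was under DDIT3. Exon lengths are unions over all annotated transcripts, so a level per kilobase understates genes with exons that these cells do not use.

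Relative to ATF4 within the same library, which does not depend on how libraries are scaled, CHAC1 stood at 1.40, 1.51 and 1.01 reads per 100 ATF4 reads with VIM-AS1, against 4.08, 4.95 and 4.10 in the controls. For DDIT3 the same quantity was 1.08, 1.31 and 1.11 with VIM-AS1, against 1.55, 1.38 and 2.29 in the controls. For PPP1R15A it was 31.8, 31.3 and 22.9 with VIM-AS1, against 20.6, 19.97 and 17.5 in the controls. These 3 ratios did not overlap between groups, and DDIT3 was close to overlapping. PPP1R15A overlapped in its normalized reads and separated only when divided by ATF4, whose own log2 fold change was -0.24 (not called). The share of all genes whose ratio to ATF4 does not overlap was not computed. TRIB3 per 100 ATF4 reads stood at 27.2, 32.3 and 21.4 with VIM-AS1, against 15.9, 23.1 and 17.2 in the controls, with overlapping groups. Within VIM-AS1 libraries and within controls the ratio of CHAC1 varied far less than it differed between them.

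**Figure D3:**
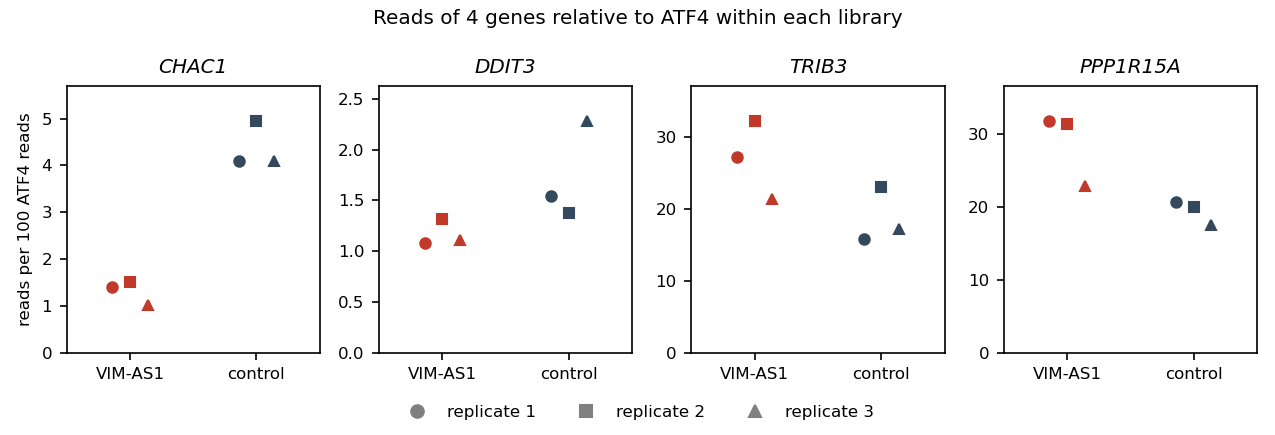
Reads of CHAC1, DDIT3, TRIB3 and PPP1R15A per 100 ATF4 reads (y axis, starting at 0) in each library. CHAC1 is between 1.01 and 1.51 in the VIM-AS1 libraries and between 4.08 and 4.95 in the controls.

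Among other ATF4 targets more genes rose than fell. In this list of 41 genes, chosen with earlier results of these data known, 40 were tested, 9 rose, 3 fell and 28 were not called, or 30.0% called, where 19.4% of all tested genes were called (11.5% higher and 7.94% lower). The same background holds for each list below. The 3 of 40 that fell are near the 7.94% of all tested genes that were lower. The median of the 40 genes was 0.13 on the log2 scale. The largest change was a fall of KLHL24, an ATF4-induced gene of the Kelch family, to 92.5 ± 35.3 normalized reads with VIM-AS1, against 234.4 ± 61.8 in the controls (SD, n = 3 each; log2 fold change -1.36 ± 0.16, limma with the term, adjusted p = 1.23e-05). WARS1, the tryptophanyl-tRNA synthetase, which interferon also induces, rose to 3972 ± 684 with VIM-AS1, against 2176 ± 431 in the controls (log2 fold change 0.87 ± 0.12). CTH, the cystathionine gamma-lyase of cysteine synthesis, fell to 297 ± 26.4 with VIM-AS1, against 411.2 ± 28 in the controls. The others that rose, chosen after their values were seen, were the synthetases AARS1, MARS1 and YARS1, the arginine transporter SLC7A1, the proline synthesis genes PYCR1 and ALDH18A1, the serine synthesis gene PSAT1 and the autophagy receptor SQSTM1, with log2 fold changes of 0.36 to 0.45, and NUPR1 also fell (-0.39). With the replicate block 18 rose and 4 fell, where 15.8% of all genes were higher and 10.8% lower. Without VIM-AS1 replicate 2, VIM-AS1 replicate 3 or control replicate 3 the number that rose was 1, 0 and 1, and the number that fell was 1 in each case. In these settings 1409, 141 and 277 of all 20926, 20927 and 20918 tested genes were higher, and 1069, 139 and 194 were lower.

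Among genes linked to CHOP and cell death, 7 were tested, 1 rose, 2 fell and 4 were not called, with a median of 0.25. The death receptor gene TNFRSF10A rose to 326.8 ± 3.76 normalized reads with VIM-AS1, against 203.2 ± 21.5 in the controls (SD, n = 3 each; log2 fold change 0.69 ± 0.13, limma with the term, adjusted p = 0.00111). The BH3-only genes BBC3 (log2 fold change -0.54 ± 0.14) and BCL2L11 (-0.37 ± 0.13) fell, and BCL2L11 did not overlap between groups. With the block 2 rose and 2 fell, where 15.8% of all genes were higher and 10.8% lower. Neither BBC3 nor BCL2L11 was called without VIM-AS1 replicate 1, and without VIM-AS1 replicate 3 or control replicate 3 no gene of the 7 was called by limma. Over all genes 2797, 280 and 471 were called in these settings.

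The other bZIP factors tested, 13 in number, gave 2 that rose, 3 that fell and 8 that were not called, with a median of -0.21. ATF5, another factor under translational control by eIF2, rose to 372.7 ± 75.5 normalized reads with VIM-AS1, against 168.5 ± 33.3 in the controls, without overlap (SD, n = 3 each; log2 fold change 1.14 ± 0.13, limma with the term, adjusted p = 9.86e-06). JUN, the AP-1 subunit, fell to 984.2 ± 85.8 with VIM-AS1, against 1506 ± 115.1 in the controls (log2 fold change -0.61 ± 0.10), and BATF3 rose (0.54 ± 0.16). JDP2 (-0.46) and JUND (-0.47), named after their values were seen, completed the 3 that fell. Without VIM-AS1 replicate 3 or control replicate 3 the call of 1 gene was left in each case, where 280 and 471 of all genes were called.

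Upstream of ATF4, 16 genes of the eIF2 kinases, eIF2 and its exchange factor eIF2B were tested, 5 rose, none fell and 11 were not called, with a median of 0.17. With the block 6 rose and 1 fell, where 15.8% of all genes were higher and 10.8% lower. Under library size scaling 5 rose and 2 fell, where 1745 of all 20927 genes were higher and 1525 lower. EIF2B3, a subunit of eIF2B, rose to 573.5 ± 10.3 normalized reads with VIM-AS1, against 342.9 ± 27.1 in the controls (SD, n = 3 each; log2 fold change 0.74 ± 0.12, limma with the term, adjusted p = 0.000183). GCN1, which activates the amino acid sensing kinase GCN2, rose (0.73 ± 0.12), as did EIF2S1, the subunit of eIF2 that is phosphorylated (0.64 ± 0.10). None of the 4 eIF2 kinase genes was called by limma with the term. EIF2AK1, the haem-regulated kinase, came nearest (log2 fold change -0.35 ± 0.12, limma with the term, adjusted p = 0.0529). It was lower without overlap between groups, as were 10.3% of all tested genes. EIF2AK1 was called by limma with the block (adjusted p = 0.0047) and with GC and length trends removed beside the term (0.00289). It was also called by edgeR with the term (0.0279). Without VIM-AS1 replicate 3 the number that rose was 0, and without control replicate 3 it was 1. Over all genes 141 and 277 were higher in these settings.

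In the other arms of the unfolded protein response, run by IRE1 and ATF6, 12 of 26 genes rose, none fell and 14 were not called, or 46.2% called, against 19.4% of all tested genes (11.5% higher), with a median of 0.38. They were mostly chaperones and folding enzymes of the endoplasmic reticulum. HYOU1 rose to 4038 ± 646.1 normalized reads with VIM-AS1, against 1938 ± 450.2 in the controls (SD, n = 3 each; log2 fold change 1.07 ± 0.11, limma with the term, adjusted p = 1.89e-06). The lectin chaperone CALR rose (1.04 ± 0.11), as did the disulfide isomerase PDIA6 (0.88 ± 0.10). The sensor gene ATF6, named after its values were seen, also rose (log2 fold change 0.39 ± 0.12, adjusted p = 0.0230). The sensor gene ERN1, its target XBP1 and DNAJB9, a target of spliced XBP1, were not called by limma with the term (log2 fold changes 0.01, 0.28 and 0.11). XBP1 was called with the block (adjusted p = 0.00772). These genes too were named after their values were seen. Among others not called with the term were ATF6B (0.04), HERPUD1 (-0.08), CRELD2 (0.06), SEL1L (0.48) and SYVN1 (-0.16). A difference between the IRE1 and ATF6 arms was not tested. The number that rose was 4 without VIM-AS1 replicate 3 and 4 without control replicate 3, where 280 and 471 of all genes were called. Without the term limma and edgeR called 0 of the 26 genes (8 had an unadjusted p under 0.05 in limma) and DESeq2 called 3. Limma without it called 2 under library size scaling and 7 with GC and length trends removed. Over all genes limma called 28 and 2097 in these settings, and DESeq2 without the term called 353. With the block, which takes in the term, limma called 15, where 15.8% of all genes were higher. All of these calls among the 26 genes were higher. The difference between these chaperones and the 10 genes was not tested.

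**Figure D4:**
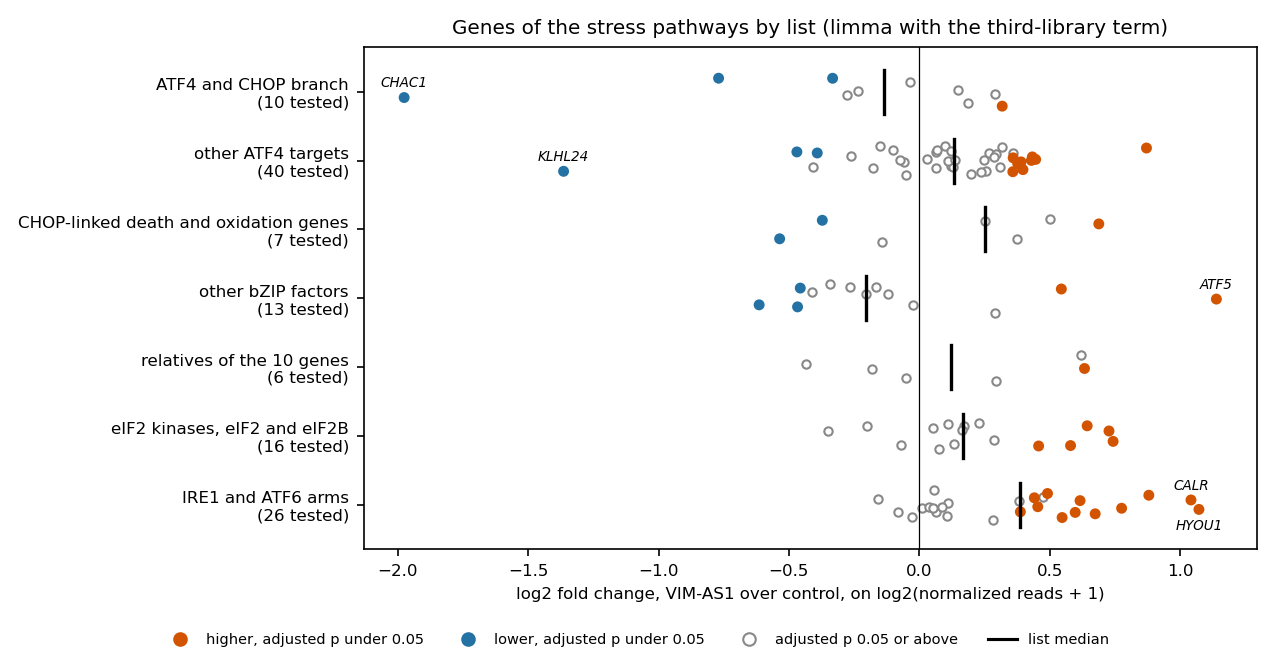
Log2 fold change of VIM-AS1 over control (x axis) for each tested gene, by list, with the list median as a vertical bar and filled points for the genes that limma called once the term was included. CHAC1 and KLHL24 lie lowest, and the genes of the IRE1 and ATF6 arms lie mostly above 0, with a median of 0.38.

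The genes whose log2 values followed CHAC1 most closely over the 6 libraries, among 9757 others with a mean of at least 100, were AL391422.4 (Pearson r = 0.999), MLXIPL (0.999) and ORAI3 (0.996). MLXIPL, which encodes the glucose-responsive factor ChREBP, stood at 378.2, 432.1 and 277.3 normalized reads with VIM-AS1, against 1025, 1224 and 894.1 in the controls. Among the genes closest to DDIT3 were GTF3C2-AS2 (0.988) and AHRR (0.966). These correlations describe 6 libraries in 2 groups that share the shift of the libraries numbered 3, and 143 genes had an r over 0.95 with CHAC1 and 12 with DDIT3.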

How the data were processed

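RNA sequencing libraries were made from 1.3 µg of total RNA with the NEBNext Ultra RNA kit, per the labels' protocols. Reads were processed with fastp, HISAT2 and featureCounts on hg38, per the submitters' processing notes. The sources used here name no version, annotation or strand setting. The deposited values are a signal per gene: whole read counts divided by 1 factor per library. All values were whole multiples of 1 step within 0.01 read (100% in each library), and the factors, 0.819 to 1.27, equalled the size factors of DESeq2.

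From the deposited values, limma (version 3.58.1, under R 4.3.3) was fitted with its trend option on log2(value + 1). Genes had to average 1 or more, and fits were made with and without a term for the third library of each group. The added 1 shrinks the fold changes of genes at low values. Fits were tested on simulated data. Deviations of same-numbered libraries from their group means correlated at 0.32, 0.72 and 0.84 over 13175 genes, so replicate numbers were taken to pair the libraries. This pairing comes from the values, since the labels do not say what a number marks, and VIM-AS1 replicate 1 correlated more with control replicate 2 (0.42). A floor of 3 reads is 2.37 to 3.67 normalized reads, which covers counting error alone.

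The 10 genes, the lists and the term were chosen with earlier results of these data known. Named were the 10 genes, up to 3 called genes of each list with the largest change, and the 3 genes most correlated with CHAC1 and with DDIT3. Alternatives used edgeR (version 4.0.16), DESeq2 (version 1.42.0) and limma-voom on recovered reads, TMM and library size scaling, other filters, a pseudocount of 0.1, the replicate block, removal of trends in transcript length and GC content (splines of 5 degrees of freedom each), and each library left out. Markers without a row in the files were not analysed here, and a few genes that these rules name are not reported here.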

Additional observations from a re-analysis of the deposited data

How the results depend on the processing

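CHAC1 kept its direction and, with the term for the third library of each group, its call in all 16 alternatives. DDIT3 did so in 13, and CEBPB and PPP1R15A in 10 each. With the term, leaving out VIM-AS1 replicate 3 or control replicate 3 gives the same fold change, so these alternatives are not separate. Of the 10 genes, 4 were called with the term, 7 with the replicate block, and 1, 2, 1 and 1 without VIM-AS1 replicate 1, VIM-AS1 replicate 2, VIM-AS1 replicate 3 and control replicate 3 (range over left-out libraries 1 to 5). Without the term 0 were called, 1 under library size scaling, with no filter on low values, by DESeq2 or with GC and length trends removed, and 0 to 1 with a library left out. The replicate block takes in the term, so its 7 calls come from a fit with it. Over all genes 5 were called without the term by limma and 353 by DESeq2, and by limma 28 under library size scaling, 17 with no filter and 2097 with GC and length trends removed. With the block, which takes in the term, limma called 5571. With the term limma called 4065, and 2478 without VIM-AS1 replicate 2, 280 without VIM-AS1 replicate 3 and 471 without control replicate 3. The split under library size scaling was 1745 higher and 1525 lower, against 2403 and 1662 with the deposited scaling. Signs turned for 2 genes that were never called. The log2 fold change of ASNS was 0.15 without the term and 0.28 with it when VIM-AS1 replicate 3 was left out, and 0.10 and 0.28 when control replicate 3 was. Over the left-out libraries that of ASNS ranged between -0.24 and 0.15 without the term and between -0.25 and 0.28 with it, and that of DDIT4 between -0.058 and 0.29 without the term, with the negative value without control replicate 3. With the term, both ASNS values of 0.28 rest on the first and second libraries of each group alone. Why leaving out a library numbered 3 moved these signs was otherwise not tested. The replicate block changed no call of the 10 genes other than those given. For the lists without the term, limma called 0 with the deposited scaling, DESeq2 called 1 of the other bZIP factors and 2 of the other ATF4 targets, and limma with GC and length trends removed called 5 of the eIF2 genes, 3 of the other bZIP factors, 5 of the other ATF4 targets and 2 of the CHOP-linked genes. ASNS, DDIT3 and CHAC1 rest on few reads, with 17 to 36, 47 to 136 and 43 to 264 per library.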

Other observations

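Close relatives of the 10 genes were also measured. Of 6 tested relatives 1 rose, none fell and 5 were not called by limma with the term for the third library of each group. That is 16.7% called, near the 19.4% of all tested genes (11.5% higher and 7.94% lower). TRIB1, a pseudokinase like TRIB3 that directs C/EBP proteins to degradation, rose to 251.2 ± 54.1 normalized reads with VIM-AS1, against 159.5 ± 13.6 in the controls (SD, n = 3 each; log2 fold change 0.63 ± 0.16, adjusted p = 0.00968), and was not called without VIM-AS1 replicate 2, VIM-AS1 replicate 3 or control replicate 3. CHAC2, the second glutathione-degrading enzyme of the CHAC family, averaged 134.7 ± 63.2 with VIM-AS1 and 138.1 ± 56.3 in the controls (log2 fold change -0.05 ± 0.19, adjusted p = 0.89). PPP1R15B, the constitutive counterpart of PPP1R15A, had a log2 fold change of 0.29 ± 0.11 (adjusted p = 0.0552, and 0.00945 with the replicate block). The relative DDIT4L was not analysed here.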
